A study of Mus musculus with 24 samples.

Results

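The insulin receptor signalling and FOXO genes are a set of 9 genes chosen by name: the receptor Insr, its substrates Irs1 and Irs2, the phosphoinositide 3-kinase subunit Pik3r1, the kinases Akt1 and Akt2, the transcription factors Foxo1 and Foxo3, and the adaptor Grb10. All 9 of the 9 named genes had a probe set with a single gene symbol on the array, out of 19938 genes measured by that rule and 35556 probe sets in all, and the rule itself uses no measured value, although the set was named with earlier results of these data known. The data are expression values from the livers of 24 male C57BL6 mice (C57BL/6J in the study's methods) on the Affymetrix Mouse Gene ST array, 1 array per mouse. The 4 groups of 6 mice, named here by their replicate number, were Ogg1-/- mice on chow, WT mice on chow, Ogg1-/- mice on a high-fat diet (HFD) and WT mice on the HFD. Per the labels, all mice were individually housed from 10 weeks of age, with free access to their diet for 10 weeks, while the study's methods give a somewhat older age at the start. Ogg1 encodes the DNA glycosylase that removes oxidized guanine, and the Ogg1-/- allele is carried in every tissue, so an effect of its loss in liver cannot be told apart from one that began in another organ. Each gene is given as a log2 signal, on which a difference of 1 is a doubling.

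In hepatocytes, insulin binding to its receptor leads to phosphorylation of the IRS proteins, which recruit phosphoinositide 3-kinase through its regulatory subunit, and the lipid it makes brings AKT to the membrane. AKT phosphorylates FOXO factors and so keeps them out of the nucleus, which lowers transcription of gluconeogenic genes, while other arms of the pathway raise lipogenic genes. All of these steps act on proteins, and the arrays measured only transcript levels.

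FOXO factors act on hepatic promoters through short elements, so the promoter windows of the genes described here were searched for them, to show which of these genes carry the letters. The windows, from RefSeq on the GRCm38.p6 build, run from 250 bases before to 50 bases after each annotated start, and 14 windows matched 8 of the 9 genes. Insr had no entry. The searched letters were CAAAACA, the core of the insulin response element known from Igfbp1 and G6pc, GTAAACA, the FOXO consensus, and CACGTG, the E-box, each on both strands. CAAAACA was present in 6.28% of all 32851 windows, GTAAACA in 3.65% and CACGTG in 7.15%. Of the 8 genes, Irs1 and Irs2 held both CAAAACA and CACGTG, a pair present in 0.408% of all windows, and 1 of the windows of Akt1 held GTAAACA. A match describes letters only and is not evidence of binding. In the sequences below, capitals mark the matched letters. They are given for the insulin receptor substrates, for Akt1 and for the prototype genes G6pc and Igfbp1, whose levels are described further on. Pck1, another prototype target, was also searched and gave no match, for want of the letters or of a window.
Irs2 (chr8:11008940-11008993, minus strand): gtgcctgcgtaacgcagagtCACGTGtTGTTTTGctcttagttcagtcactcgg
Irs1 (chr1:82291445-82291574, minus strand): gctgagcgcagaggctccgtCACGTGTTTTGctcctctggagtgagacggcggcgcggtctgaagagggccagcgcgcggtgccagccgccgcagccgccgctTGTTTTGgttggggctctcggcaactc
Igfbp1 (chr11:7197659-7197705, plus strand): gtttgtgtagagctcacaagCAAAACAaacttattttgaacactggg
G6pc (chr11:101367522-101367568, plus strand): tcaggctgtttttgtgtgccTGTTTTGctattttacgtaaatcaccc
Akt1 (chr12:112675019-112675065, minus strand): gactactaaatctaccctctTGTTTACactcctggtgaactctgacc
In Irs2 the E-box began 44 bases before the start and the insulin response element letters 37 bases before it. In Irs1 they began 115 and 111 bases before the start and shared letters, and a further CAAAACA lay 32 bases before it.

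The Ogg1 probe set itself was lower in every Ogg1-/- liver than in every WT liver of the same diet (-0.54 on chow and -0.59 on the HFD, two-sided exact permutation test, p = 0.00216 in each, the smallest that 6 mice against 6 allow). Livers of the same group also differed along a main axis of variation, which took up 40.2% of the variation within the chow groups. In HFD-fed mice the axis score lay between 18.5 and 54.8 in Ogg1-/- livers and between -20.7 and 10.4 in WT livers. The chow-fed Ogg1-/- mouse 1 scored 80.9 and made up 59.2% of the squares along the axis in the chow groups. Because Insr, Pik3r1 and Akt1 moved closely with this axis, values from a second fit with the score as a covariate are given beside theirs. That fit also removes any effect of genotype that runs along the axis. Hepatocyte markers were at a mean log2 signal of 13.3 to 13.6 over all groups. Of 6 endothelial markers, 5 were lower in Ogg1-/- livers than in WT livers on the HFD, where their mean log2 signal lay between 7.94 and 8.19 in Ogg1-/- livers and between 8.30 and 8.82 in WT livers. Their part in the results below was not tested, and in whole liver fewer cells of a type and less RNA per cell cannot be told apart. Dbp, an output gene of the circadian clock, was higher in Ogg1-/- livers than in WT livers by 1.63 on chow and 1.04 on the HFD. The hour of collection and the time since feeding are not given in the sources used here, and their part was not tested. The descriptions of 6 of the 6 WT livers on chow and of 1 of the 6 WT livers on the HFD end in letters that no Ogg1-/- liver carries. Their meaning is not given, and on chow it cannot be told apart from genotype.

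On the HFD, 6 of the 9 genes differed between the genotypes (limma, adjusted p under 0.05 over all probe sets). Akt1, Akt2 and Foxo1 were higher in Ogg1-/- livers, while Insr, Irs1 and Pik3r1 were lower. The kinases that relay the signal and a factor they restrain thus had more transcript, and the receptor, 1 of its substrates and the regulatory subunit of the lipid kinase had less. The comparison was wide over the array: 11.9% of the 19938 genes were higher and 11.8% were lower by the same rule. The share of all genes whose groups did not overlap was not counted, in this or any other comparison. A lack of overlap given below therefore describes the gene named and is not shown to be particular to it. Counting only genes that also differed by at least 1.5-fold, 1 of the 9 was higher (Akt1) and 2 were lower (Insr and Pik3r1), against 0.752% and 5.37% of all genes. The median difference of the 9 genes was 0.11, beside 0.03 over all genes.

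Insr, the receptor gene, ranged from 8.95 to 9.55 with a median of 9.32 in Ogg1-/- livers on the HFD, against 9.68 to 10.19 with a median of 10.05 in WT livers. The highest Ogg1-/- liver was thus under the lowest WT liver. The difference was -0.69 (standard error 0.21, adjusted p = 0.0225), a 1.61-fold lower level. The other Insr probe set, whose signal followed the first over the 24 arrays (r = 0.92), differed by -0.34 (standard error 0.11, adjusted p = 0.0268). The Insr difference was below 0 in all 36 alternative fits, but it was no longer past the threshold when the HFD-fed Ogg1-/- mouse 1 (adjusted p = 0.0597) or the HFD-fed WT mouse 2 (adjusted p = 0.0505) was left out. With the axis score as a covariate the Insr difference was -0.12 (95% interval -0.31 to 0.07, adjusted p = 0.543).

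Irs1, an adaptor that the activated receptor phosphorylates, ranged from 7.84 to 8.23 with a median of 8.08 in Ogg1-/- livers on the HFD, against 8.06 to 8.60 with a median of 8.38 in WT livers. The groups overlapped, with the lowest WT liver inside the Ogg1-/- range. The Irs1 difference was -0.31 (standard error 0.10, adjusted p = 0.0294). This call was lost under several settings, among them quantile normalization (adjusted p = 0.0591), centring on reference genes (adjusted p = 0.0709) and the methods' t-test (adjusted p = 0.0503), and leaving out single livers brought the adjusted p to 0.0163 at the lowest and 0.0702 at the highest. The difference itself held between -0.37 and -0.23 over all alternatives. A dim probe set for Irs1, with a mean signal of 4.40 and little relation to the first (r = 0.14), differed by -0.14 (adjusted p = 0.388).

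Irs2, the substrate that carries much of the signal in liver and whose gene FOXO factors are known to induce, went the other way in direction and did not pass the test. Its range was 7.01 to 7.75 with a median of 7.29 in Ogg1-/- livers on the HFD, against 6.94 to 7.49 with a median of 7.14 in WT livers. The ranges overlapped for most of their length. The Irs2 difference was 0.19 (95% interval -0.03 to 0.42, adjusted p = 0.245). The promoter letters that Irs1 and Irs2 share, printed above, were thus found in 1 gene that fell and 1 that did not pass the test.

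Pik3r1 encodes the regulatory subunits through which phosphoinositide 3-kinase docks on the IRS proteins. It ranged from 8.78 to 9.29 with a median of 9.05 in Ogg1-/- livers on the HFD, against 9.43 to 10.03 with a median of 9.78 in WT livers. No liver of one genotype reached the range of the other. The Pik3r1 difference was -0.67 (standard error 0.17, adjusted p = 0.0090), a 1.59-fold lower level, and it passed in 35 of 36 alternative fits. With the axis score as a covariate it was -0.22 (95% interval -0.41 to -0.03, adjusted p = 0.192).

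Akt1 and Akt2 encode the protein kinases activated downstream of phosphoinositide 3-kinase, AKT2 being the isoform most tied to hepatic glucose and lipid metabolism. Akt1 ranged from 9.32 to 9.62 with a median of 9.46 in Ogg1-/- livers on the HFD, against 8.49 to 9.06 with a median of 8.92 in WT livers. The groups did not overlap. The Akt1 difference was 0.59 (standard error 0.12, adjusted p = 0.0033), a 1.51-fold higher level, and 0.32 with the axis score as a covariate (standard error 0.09, adjusted p = 0.0633).

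Akt2 ranged from 11.06 to 11.33 with a median of 11.18 in Ogg1-/- livers on the HFD, against 10.64 to 10.99 with a median of 10.89 in WT livers, again without overlap. The Akt2 difference was 0.34 (standard error 0.07, adjusted p = 0.0027). Both Akt2 probe sets gave the same result, the other at 0.35 (adjusted p = 0.0034), and their signals followed each other over the 24 arrays (r = 0.95). Akt2 kept an adjusted p under 0.05 in all 36 alternative fits, with a highest value of 0.0492 with the axis score as a covariate (difference 0.25). Its 1.26-fold difference was under the 1.5-fold rule.

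Foxo1, the FOXO factor best known for driving gluconeogenic genes in liver, ranged from 9.16 to 9.41 with a median of 9.28 in Ogg1-/- livers on the HFD, against 8.51 to 9.26 with a median of 8.83 in WT livers. A single WT liver reached into the Ogg1-/- range. The Foxo1 difference was 0.47 (standard error 0.10, adjusted p = 0.0045), a 1.39-fold higher level. Foxo1 also kept an adjusted p under 0.05 in all 36 alternative fits, though not a 1.5-fold difference, with differences between 0.41 and 0.56 and an adjusted p of at most 0.0195. Unlike Insr, Pik3r1 and Akt1, its difference was not smaller with the axis score as a covariate (0.54). The relation of Foxo1 to the axis depended on 1 liver, however. After subtraction of group means, its r with the axis score was -0.24 over 24 livers. Without the chow-fed Ogg1-/- mouse 1 it was 0.31 over 23 livers, and the covariate fit was not repeated without that liver.

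Foxo3, a related factor with many of the same target sequences, ranged from 8.35 to 8.78 with a median of 8.46 in Ogg1-/- livers on the HFD, against 8.17 to 8.57 with a median of 8.41 in WT livers. The Foxo3 difference was 0.11 (95% interval -0.07 to 0.29, adjusted p = 0.452). Grb10, an adaptor that binds the insulin receptor and restrains its signalling, ranged from 5.60 to 5.90 with a median of 5.80 in Ogg1-/- livers on the HFD, against 5.63 to 6.12 with a median of 5.94 in WT livers. The Grb10 difference was -0.12 (95% interval -0.30 to 0.07, adjusted p = 0.434). For both genes the genotypes overlapped over most of their ranges.

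**Figure D1:**
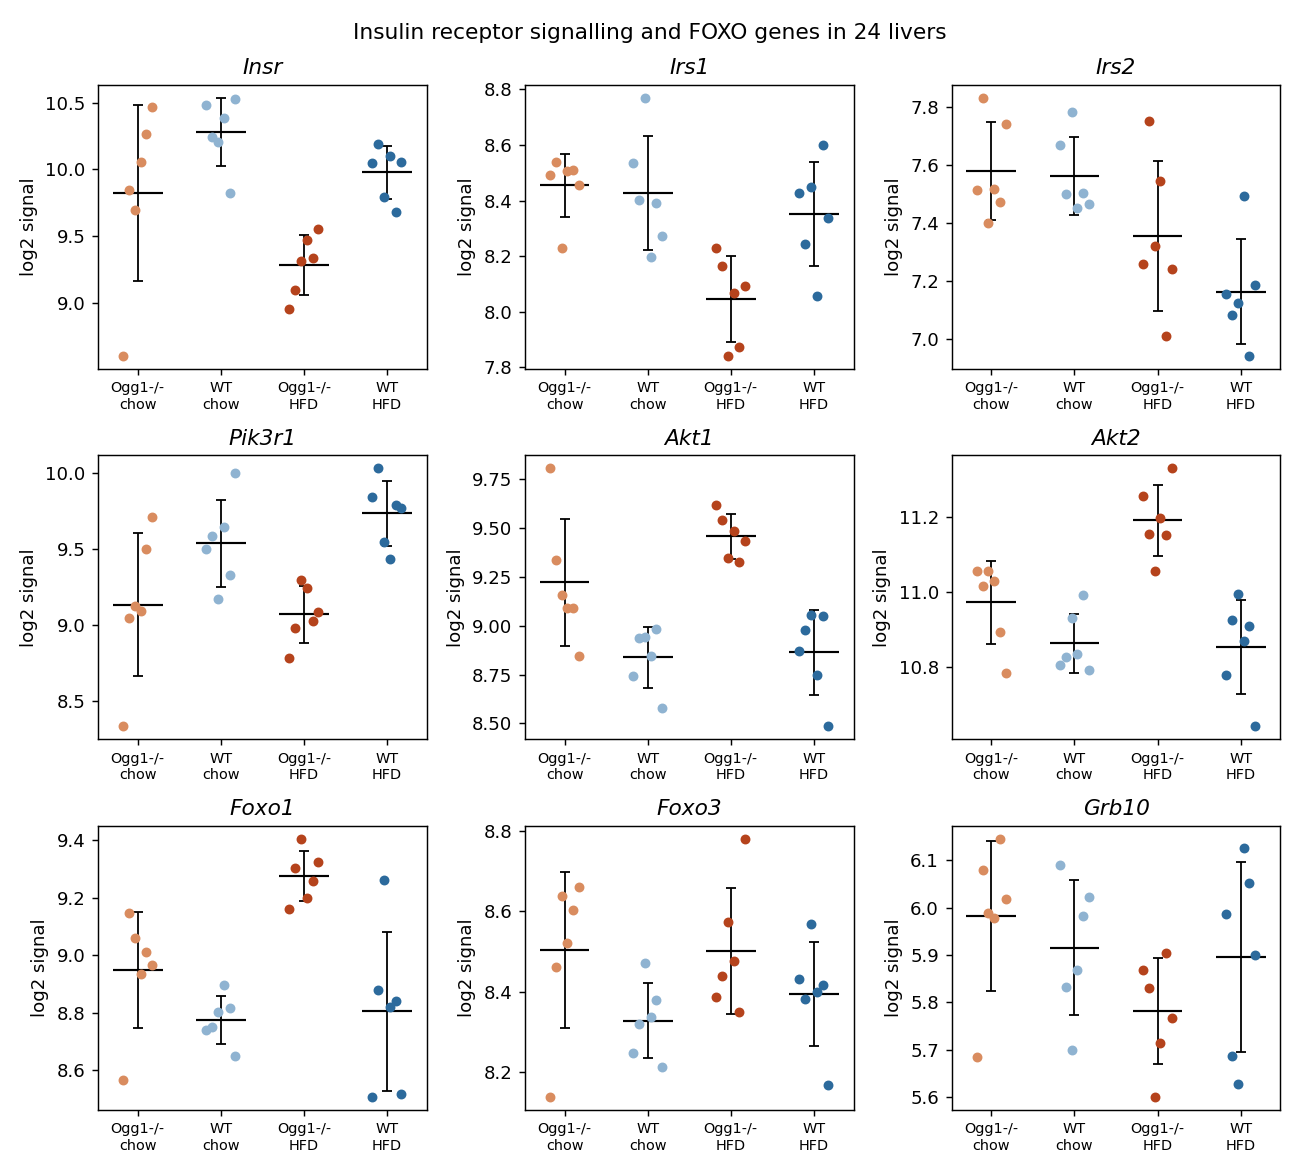
Log2 signal (vertical axes) of each of the 9 genes in each of the 24 livers, in 4 groups of 6 along the horizontal axis. Each point is 1 mouse, with the mean of the group as a horizontal line and its SD as a vertical line. On the HFD, the Ogg1-/- points of Insr and Pik3r1 lie wholly below the WT points and those of Akt1 and Akt2 wholly above. How many of all genes are separated in this way was not counted. On chow, 1 Ogg1-/- liver stands low for Insr at 8.60 and for Pik3r1 at 8.33.

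On chow, none of the 9 genes passed the test in either direction, where 0.341% of all genes were higher and 0.276% were lower in Ogg1-/- livers. At an unadjusted p under 0.05, 3 of the 9 differed, the same fit giving 4206 of the 19938 genes. By the methods' t-test with adjustment the count was also 0. Insr had a mean of 9.82 ± 0.66 in Ogg1-/- livers and 10.28 ± 0.26 in WT livers (SD, n = 6 each), a difference of -0.46 (95% interval -0.89 to -0.03, adjusted p = 0.253). Ogg1-/- mouse 1 stood low, at 8.60 where the other 5 ran from 9.69 to 10.46. Pik3r1 had a mean of 9.13 ± 0.47 in Ogg1-/- livers and 9.54 ± 0.28 in WT livers (SD, n = 6 each), a difference of -0.40 (adjusted p = 0.221). Akt1 had a mean of 9.22 ± 0.33 in Ogg1-/- livers and 8.84 ± 0.15 in WT livers (SD, n = 6 each), a difference of 0.38 (95% interval 0.13 to 0.64, adjusted p = 0.146). With the chow-fed Ogg1-/- mouse 6 left out, the Akt1 difference was 0.46 and passed (adjusted p = 0.0438). The 6 other differences lay between 0.02 for Irs2 and 0.18 for Foxo3.

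Whether the effect of genotype differed between the diets was tested as an interaction. None of the 9 genes passed (adjusted p of 0.656 at the lowest), where 0% of all genes had a higher and 0.00502% a lower effect on the HFD than on chow. At an unadjusted p under 0.05, 2 of the 9 differed, the same fit giving 1211 of the 19938 genes. The interaction was -0.33 for Irs1 (95% interval -0.62 to -0.05) and 0.23 for Akt2 (95% interval 0.03 to 0.42). For Foxo1 it was 0.30 (95% interval -0.01 to 0.60). The 6 genes that passed on the HFD are therefore not shown to respond to genotype differently from chow.

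The HFD itself was compared with chow within each genotype. In WT livers none of the 9 genes passed, where 0.742% of all genes were higher and 0.371% were lower on the HFD, or 0.316% and 0.201% with a fold of at least 1.5. By the methods' t-test the count was also 0. At an unadjusted p under 0.05 in the limma fit, 2698 of the 19938 genes differed, and 1 of the 9 did. That gene was Irs2, which ranged from 6.94 to 7.49 with a median of 7.14 in WT livers on the HFD, against 7.45 to 7.78 with a median of 7.50 in WT livers on chow. Only the highest HFD liver overlapped the chow range. The Irs2 difference was -0.40 (95% interval -0.62 to -0.17, adjusted p = 0.0877), and it passed when the HFD-fed WT mouse 4 was left out (-0.46, adjusted p = 0.0426) and with array weights (-0.41, adjusted p = 0.0375). In Ogg1-/- livers the Irs2 difference between the diets was -0.22 (adjusted p = 0.199). With the axis score as a covariate, Pik3r1 was higher on the HFD in WT livers by 0.42 (adjusted p = 0.0074), where the fit without it gave 0.20 (adjusted p = 0.649).

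In Ogg1-/- livers, 2 of the 9 genes were higher on the HFD than on chow (Akt2 and Foxo1) and 1 was lower (Irs1), where 5.59% of all genes were higher and 5.87% were lower. None of the 9 also differed by 1.5-fold, as 0.823% of all genes did upward and 2.61% downward. Irs1 ranged from 7.84 to 8.23 with a median of 8.08 in Ogg1-/- livers on the HFD, against 8.23 to 8.54 with a median of 8.50 in Ogg1-/- livers on chow. The ranges met without overlapping, and the Irs1 difference was -0.41 (standard error 0.10, adjusted p = 0.0121). It passed in 35 of 36 alternative fits. Foxo1 ranged from 9.16 to 9.41 in Ogg1-/- livers on the HFD, against 8.57 to 9.15 in Ogg1-/- livers on chow, with a difference of 0.33 (standard error 0.10, adjusted p = 0.0485). The Akt2 difference was 0.22 (standard error 0.07, adjusted p = 0.0413). The other Akt2 probe set differed by 0.18 here and did not pass (adjusted p = 0.109). The Foxo1 and Akt2 calls lay near the threshold: Foxo1 passed in 12 and Akt2 in 20 of 36 alternative fits. On the HFD, 4 of the 6 endothelial markers were lower and 1 of the 6 macrophage markers was higher in Ogg1-/- livers than on chow, and their part was not tested.

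The count of 3 in Ogg1-/- livers depended on single livers. It was 1, with Irs1 alone, when the HFD-fed Ogg1-/- mouse 1, 2, 4, 5 or 6 or the chow-fed Ogg1-/- mouse 4, 5 or 6 was left out. With the chow-fed Ogg1-/- mouse 1 left out, 5 of the 9 genes passed: Insr at -0.78 (adjusted p = 0.000398), Irs1 at -0.40 (adjusted p = 0.0058), Grb10 at -0.26 (adjusted p = 0.0313), Akt1 at 0.35 (adjusted p = 0.0128) and Akt2 at 0.24 (adjusted p = 0.0140). Foxo1, at 0.25, then did not pass (adjusted p = 0.0607). With all 24 livers, Insr differed by -0.53 between the diets in Ogg1-/- livers (95% interval -0.97 to -0.10, adjusted p = 0.105). The other Insr probe set did pass in this comparison, at -0.39 (adjusted p = 0.0234). The average of the Insr probe sets also passed, at -0.46 (adjusted p = 0.0358). Leaving out the chow-fed Ogg1-/- mouse 1 changed none of the 6 calls between the genotypes on the HFD.

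**Figure D2:**
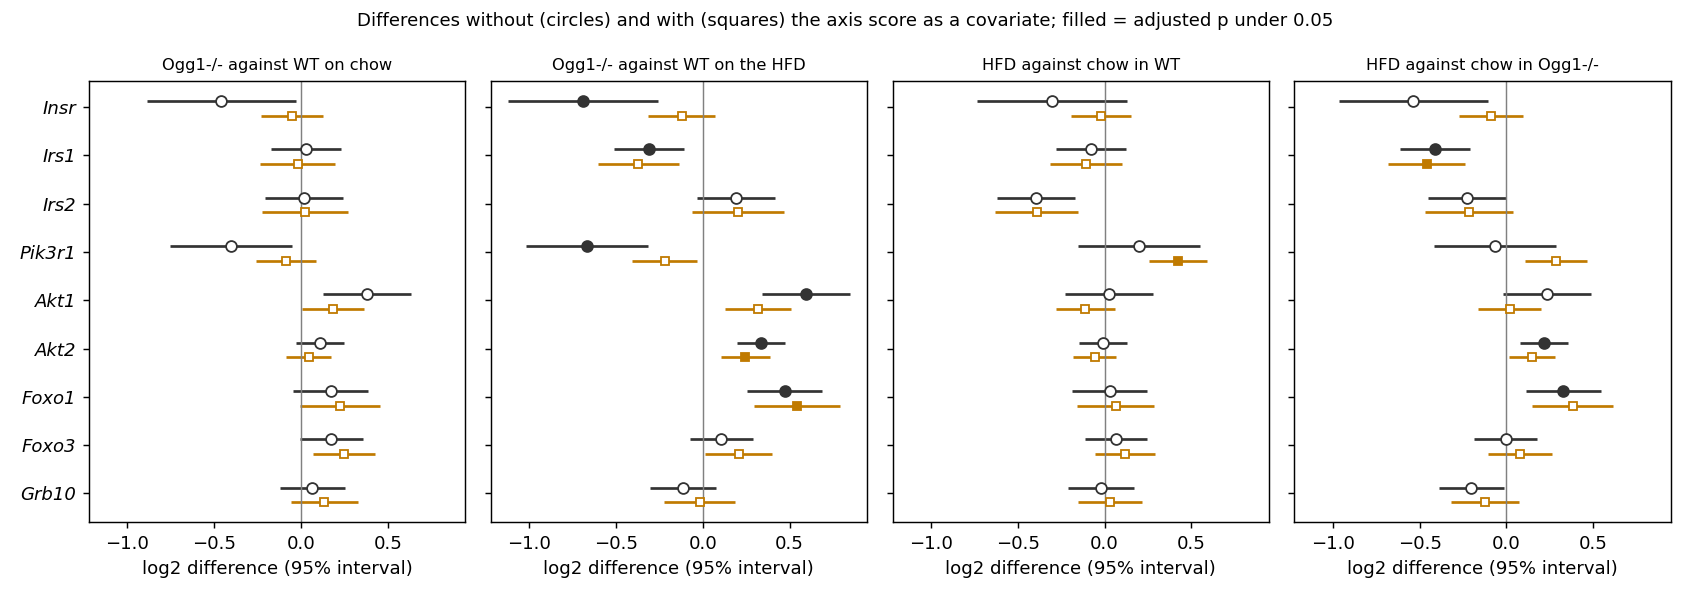
Log2 differences (horizontal axes) with 95% intervals of the 9 genes in 4 comparisons, without (circles) and with (squares) the axis score as a covariate. Filled marks had an adjusted p under 0.05: 6 genes between Ogg1-/- and WT livers on the HFD without the covariate, of which Akt2 and Foxo1 also passed with it.

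Over livers of the same group, some of the 9 genes varied together. After the mean of each group was subtracted, Insr correlated with Pik3r1 at r = 0.82 and with Akt1 at r = -0.82 over the 24 livers. Akt1 and Akt2 correlated at r = 0.70, and Foxo1 and Foxo3 at r = 0.65. Irs2 did not reach an r of more than 0.20 in size with any of the other 8. Correlations with the axis score were -0.94 for Insr, -0.91 for Pik3r1, 0.80 for Akt1 and 0.55 for Akt2, and between -0.43 and 0.24 for the other 5. These points share arrays and signal normalization, and the liver that stood apart weighs on several of them. Without it, over 23 livers, r was 0.67 for Insr with Pik3r1, -0.66 for Insr with Akt1, 0.77 for Akt1 with Akt2 and 0.50 for Foxo1 with Foxo3, while Insr with Foxo3 had an r of 0.04 over the 23 and 0.49 over all 24. The pair Akt1 and Foxo1 had an r near 0 over all 24 livers and 0.51 over the 23.

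**Figure D3:**
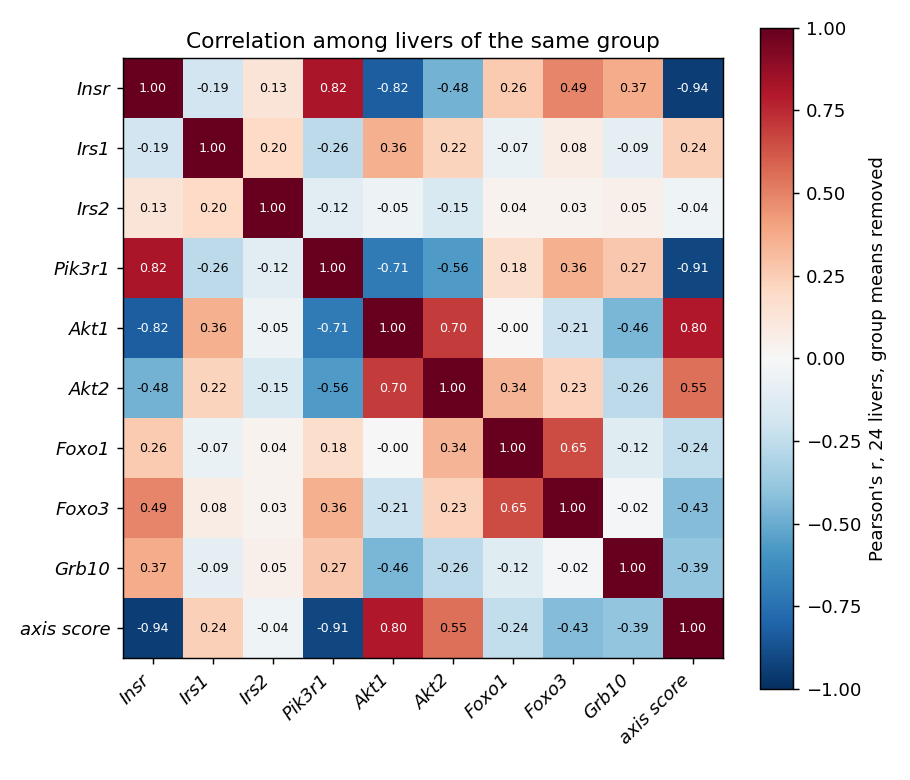
Pearson's r over the 24 livers, after subtraction of group means, between each pair of the 9 genes and the axis score (rows and columns, colour scale from -1 to 1). Insr and Pik3r1 correlate at 0.82 and run opposite to Akt1, at -0.82 and -0.71.

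The genes whose levels most resembled each of the 9, by the same measure over all 19938 genes and 24 livers, differed from gene to gene. The values are the highest found for each gene among so many. They were not recomputed without the chow-fed Ogg1-/- mouse 1, on which some of the correlations above depended. Insr was most like Arhgap42 (r = 0.98) and Deptor (r = 0.97), the gene of an inhibitor bound to mTOR. Pik3r1 was most like Taf2 (r = 0.93) and Kpna4 (r = 0.92), Akt1 like Lypla2 and Ppp4c (r = 0.96 each), and Akt2 like Prkcsh (r = 0.90) and Skiv2l (r = 0.87). Foxo3 was most like Hpd (r = 0.84) and Car5a (r = 0.82), enzymes of tyrosine breakdown and of mitochondrial bicarbonate supply, and Foxo1 like Lman2l and Abhd15 (r = 0.78 each). The values were lower for Irs1 with Adpgk (r = 0.80) and Ccdc84 (r = 0.77), Irs2 with Gm648 (r = 0.74) and Plcd4 (r = 0.73), and Grb10 with Cluap1 (r = 0.74) and Tgfbi (r = 0.73).

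The rest of the pathway was followed in 8 lists holding 102 further genes, of which 91 were measured. On the HFD, 19 were higher and 27 lower in Ogg1-/- livers, and 45 did not pass, to be read beside the 11.9% and 11.8% of all genes given above. The median difference of the 91 genes was -0.04. With the axis score as a covariate 4 of the 91 passed, 1 higher and 3 lower.

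Of 9 further measured genes of receptors, adaptors and receptor substrates, 4 were higher and 1, Ceacam1, was lower. Ceacam1, which encodes a receptor substrate that promotes insulin clearance by the liver, ranged from 9.88 to 10.28 in Ogg1-/- livers on the HFD, against 10.79 to 11.37 in WT livers. It fell by 1.11 on the log2 scale (adjusted p = 0.0042), without overlap. Shc1, Sh2b1 and Grb2, which encode adaptors that bind activated receptors, rose by 0.55, 0.40 and 0.33 (adjusted p = 0.0066, 0.0137 and 0.0202).

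Around phosphoinositide 3-kinase, 3 of 9 were lower and none was higher. Pik3ca, which encodes the alpha catalytic subunit that binds the products of Pik3r1, ranged from 6.44 to 7.05 in Ogg1-/- livers on the HFD, against 7.52 to 8.32 in WT livers. It fell by 1.05 on the log2 scale (adjusted p = 0.0028). Pik3cb, the gene of the beta catalytic subunit, fell by 0.52 (adjusted p = 0.0070), and Pdpk1, which encodes the kinase that activates AKT, by 0.53 (adjusted p = 0.0174). Not all subunit genes went this way: Pik3cd, for the delta catalytic subunit, differed by 0.22 (adjusted p = 0.0736), Pik3r2, for the beta regulatory subunit, by 0.31 (adjusted p = 0.0576) and Pik3r3, for the gamma regulatory subunit, by -0.22 (adjusted p = 0.104), none past the threshold.

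Among the mTOR complexes and AKT substrates, 4 of 16 were higher and 5 lower. Rictor, which encodes the defining subunit of the complex that phosphorylates AKT, fell by 0.77 (adjusted p = 0.0119), and Deptor by 0.84 (adjusted p = 0.0049). Rheb, the gene of the GTPase that activates mTOR complex 1, rose by 0.65 (adjusted p = 0.0020), and Gsk3a, a kinase that AKT inactivates, by 0.48 (adjusted p = 0.0088). Among brakes on the pathway, of which Grb10 is a member, 2 of 13 were higher and 4 lower. Ptpn1, encoding a phosphatase that dephosphorylates the receptor, rose by 0.29 (adjusted p = 0.0146). The related phosphatase gene Ptpn2 fell by 0.64 (adjusted p = 0.0112), Grb14, an adaptor of the Grb10 family, by 0.35 (adjusted p = 0.0357), and the AKT phosphatase gene Phlpp2 by 0.32 (adjusted p = 0.0039).

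All 8 measured genes of the RAS-MAPK branch passed, 2 higher and 6 lower. Rasa1, which encodes a RAS inactivator, fell by 0.83 (adjusted p = 0.0069). The exchange factor genes Sos2 and Sos1 fell by 0.61 and 0.46 (adjusted p = 0.0120 and 0.0360) and Nras by 0.49 (adjusted p = 0.0266). Of the FOXO family and its regulators other than Foxo1 and Foxo3, 2 of 12 were higher and 3 lower. Foxo4 rose by 0.39 (adjusted p = 0.0066), while Usp7, Mdm2 and Crebbp, which encode a deubiquitinase, a ubiquitin ligase and an acetyltransferase that act on FOXO proteins, fell by 0.79, 0.77 and 0.43 (adjusted p = 0.0074, 0.0075 and 0.0203). Of the genes named so far from these 6 lists, Ceacam1, Pik3ca and Rheb still passed with the axis score as a covariate, and the others did not. Grb14, Sos1, Nras, Crebbp and Pdpk1 also lost the call when some single livers were left out, so that it was lost in 9, 8, 5, 3 and 2 of 36 alternative fits.

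**Figure D4:**
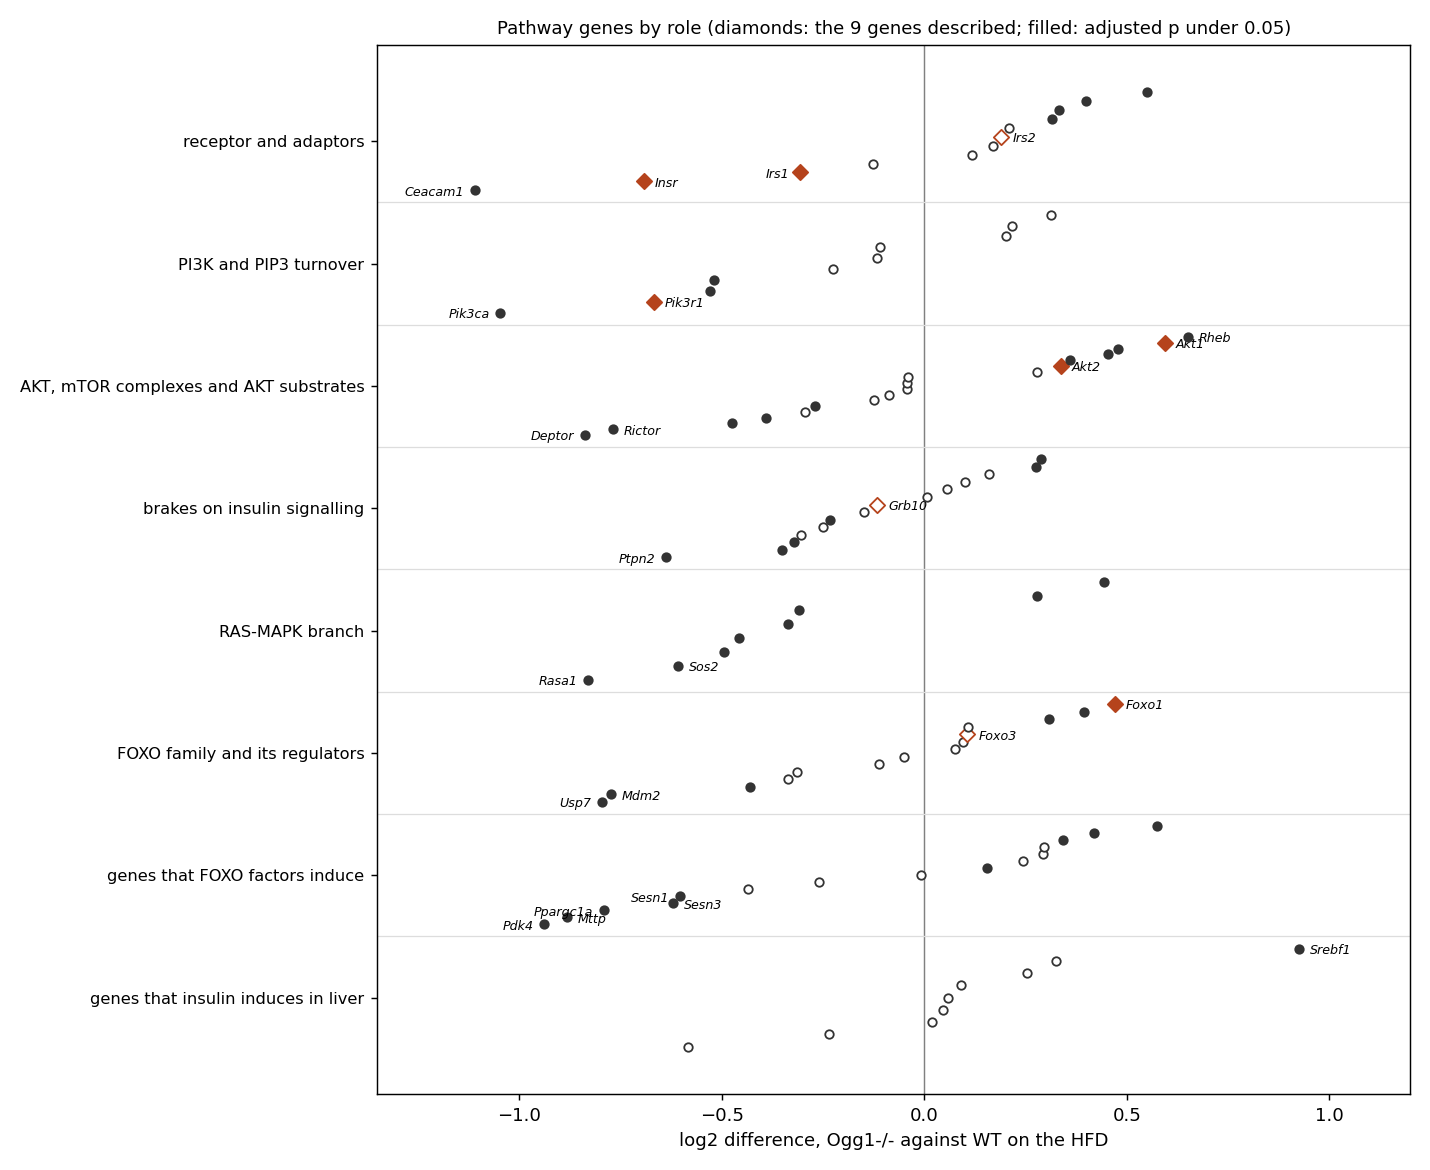
Log2 differences between Ogg1-/- and WT livers on the HFD (horizontal axis) of the genes of 8 pathway lists (rows). Diamonds are the 9 genes described and circles the other genes, filled where the adjusted p was under 0.05. Phosphoinositide 3-kinase genes that passed lie at negative values, from -0.52 to -1.05, while Akt1, Akt2 and Foxo1 lie at positive values.

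Genes that FOXO factors are known to induce did not share a direction. On the HFD, 4 of 15 were higher and 5 lower in Ogg1-/- livers, beside 11.9% and 11.8% of all genes. The 4 genes named next had the largest differences of those past the threshold, and all 4 fell. Others had a higher mean signal in Ogg1-/- livers on the HFD, such as Klf15 (10.16 against 9.59 in WT livers). Pink1 was likewise at 10.31 against 9.89. Ppargc1a, the gene of a co-activator of gluconeogenesis and fatty acid oxidation, ranged from 6.35 to 6.75 in Ogg1-/- livers, against 7.005 to 7.75 in WT livers, and fell by 0.79 (adjusted p = 0.0056). Mttp, which encodes the transfer protein for very low density lipoprotein assembly, fell by 0.88 (adjusted p = 0.0032) and Sesn3 by 0.62 (adjusted p = 0.0034). Pdk4, the gene of a kinase that inactivates pyruvate dehydrogenase, fell by 0.94 (adjusted p = 0.0493), with overlap between the genotypes, and this call was lost in 26 of 36 alternative fits, with an adjusted p of up to 0.33. With the axis score as a covariate, Mttp still passed, while Ppargc1a was at -0.41 (adjusted p = 0.152) and Sesn3 at -0.36 (adjusted p = 0.0795). The median of the 15 was -0.01.

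The prototype targets did not pass on the HFD. G6pc, the glucose-6-phosphatase gene, whose promoter letters are printed above, ranged from 12.46 to 13.26 with a median of 12.99 in Ogg1-/- livers on the HFD, against 12.69 to 13.58 with a median of 13.21 in WT livers. Its difference was -0.26 (adjusted p = 0.304). Pck1, which encodes the cytosolic enzyme that commits carbon to gluconeogenesis, differed by 0.29 (adjusted p = 0.297), and Igfbp1, the gene of a secreted IGF-binding protein, by -0.44 (adjusted p = 0.340). Foxo1 was thus higher on the HFD in livers where none of these 3 genes passed the test.

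On chow, G6pc was 1 of 3 pathway genes of the 91 that passed, the others being Trib3 and Sesn3. Of all genes, 0.341% were higher and 0.276% lower in Ogg1-/- livers on chow. G6pc ranged from 11.79 to 12.74 with a median of 12.36 in Ogg1-/- livers on chow, against 13.15 to 13.47 with a median of 13.27 in WT livers. The genotypes did not overlap, with a difference of -0.96 (standard error 0.16, adjusted p = 0.0046, and 0.0731 by the methods' t-test). Foxo1, on chow, differed by 0.17 in these livers (adjusted p = 0.388). Trib3, which encodes a pseudokinase reported to bind and restrain AKT, was higher by 0.59 on chow (adjusted p = 0.0066), and Sesn3 fell by 0.57 (adjusted p = 0.0469). The Trib3 call was lost in the fit of the 12 arrays compared (adjusted p = 0.103) and by the methods' t-test (adjusted p = 0.213), and the Sesn3 call in 22 of 36 alternative fits, with an adjusted p of up to 0.339. Igfbp1 differed by -1.01 (adjusted p = 0.117) and Pck1 by 0.47 (adjusted p = 0.198), neither past the threshold. With the chow-fed Ogg1-/- mouse 6 left out, 8 of the 91 passed.

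Of 9 measured genes that insulin induces in liver, Srebf1 rose in Ogg1-/- livers on the HFD and the other 8 did not pass. Srebf1, which encodes the lipogenic factor SREBP-1, ranged from 10.85 to 11.21 in Ogg1-/- livers on the HFD, against 9.75 to 10.45 in WT livers, a difference of 0.92 (adjusted p = 0.0026). With the axis score as a covariate it was 0.69 (adjusted p = 0.0566).

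Between the diets, 2 of the 91 pathway genes were higher on the HFD in WT livers: Pklr, the gene of the liver pyruvate kinase, by 0.74, and Mlst8, a subunit gene of both mTOR complexes, by 0.42 (adjusted p = 0.0136 each). Of all genes, 0.742% were higher and 0.371% lower on the HFD in WT livers. In Ogg1-/- livers, 8 of the 91 were higher and 16 lower on the HFD, beside 5.59% and 5.87% of all genes. The largest differences of pathway genes there were in Bcl6, which encodes a transcriptional repressor (-1.80, adjusted p = 0.0194), Srebf1 (1.29, adjusted p = 0.000206), Pik3ca (-0.98, adjusted p = 0.0062) and Rictor (-0.82, adjusted p = 0.0156). By the methods' t-test Pklr, Mlst8, Bcl6, Pik3ca and Rictor did not pass, and with the axis score as a covariate Bcl6 and Rictor did not. Single livers left out also ended these calls, without the chow-fed Ogg1-/- mouse 6 or the HFD-fed Ogg1-/- mouse 1 for Bcl6 and without the chow-fed Ogg1-/- mouse 5 for Rictor. G6pc was higher on the HFD by 0.61 in Ogg1-/- livers (adjusted p = 0.0229), and differed by -0.09 in WT livers (adjusted p = 0.849). The G6pc call was lost in the fit of the 12 arrays compared (adjusted p = 0.0733), by the methods' t-test (adjusted p = 0.126) and when the HFD-fed Ogg1-/- mouse 1 (adjusted p = 0.0665) or the chow-fed Ogg1-/- mouse 6 (adjusted p = 0.0654) was left out. Its interaction of genotype and diet was 0.70 and did not pass (adjusted p = 0.538).

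**Figure D5:**
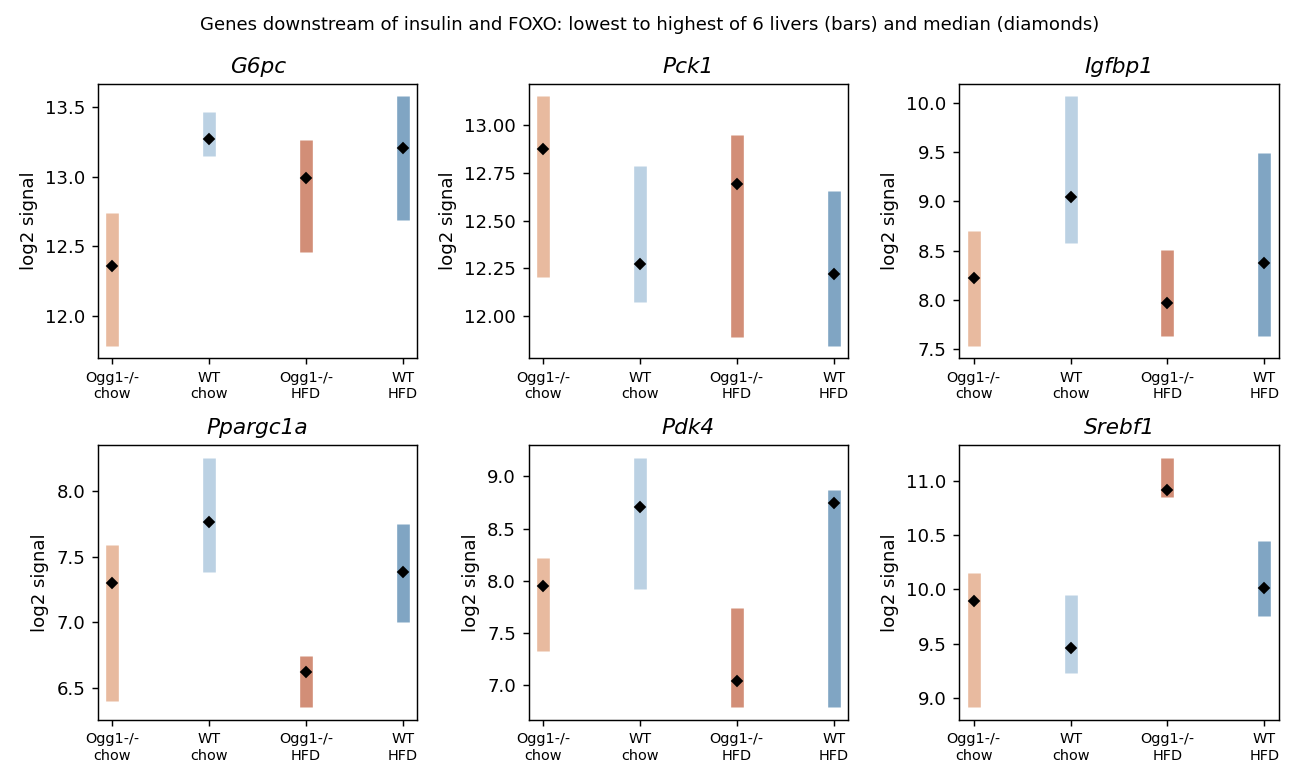
Log2 signal (vertical axes) of 6 genes downstream of insulin and FOXO in the 4 groups (horizontal axis). Bars run from the lowest to the highest of 6 livers and diamonds are medians. G6pc of Ogg1-/- livers lies below that of WT livers on chow without overlap, and Srebf1 of Ogg1-/- livers lies above that of WT livers on the HFD without overlap.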

How the data were processed

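Liver RNA of 24 mice was hybridized to 1 array each. The authors deposited 1 log2 signal for each probe set and array, made by robust multiarray averaging (RMA, with no version given), with array medians between 5.90 and 5.97. RMA sets all arrays to a common distribution, so a global change would not be seen. Array depth has no counts, and the number of arrays limits the precision. A single limma model (limma 3.58.1, R 4.3.3, lmFit and eBayes) with a mean for each of the 4 groups was fitted to all 35556 probe sets, and Benjamini-Hochberg adjustment ran over the whole table. A gene passed at an adjusted p under 0.05. Genes were named from GEO's platform annotation, by which 21789 probe sets had a single symbol, updated through the Entrez identifier where possible (21698), 1621 had several and 12146 are not named here. Where a gene had several probe sets, the brightest on average was used. Levels are not comparable between genes, since probe sets differ in response. The p-values set each difference against the spread between these mice and treat the mice as independent. Whether mice of a group were littermates is not given.

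The 9 genes, the 8 pathway lists and the marker lists were chosen with earlier results of these data known. Named pathway genes were, per list, up to 4 with the largest difference among those past the threshold between the genotypes on the HFD, up to 4 over all lists in each other comparison, and G6pc, Pck1 and Igfbp1 in any case. Of the marker lists between the genotypes on the HFD, 2 of 6 macrophage markers and 1 of 6 stellate markers were lower, 1 of 4 lymphocyte markers was higher, and 0 hepatocyte, cholangiocyte, adipocyte and pancreas markers passed. Of 6 reference genes, 1 was higher and 1 lower. On chow 0 markers passed. The fit was tested on simulated data. Promoter windows and motifs came from RefSeq (GRCm38.p6), and no genome build for the array was found in the sources read. Alternatives in normalization were quantile normalization and centring on array medians or on reference genes. Those in the fit were array weights, a robust trended prior, the replicate block, only the 12 arrays compared and the methods' t-test. Others were dropping the dimmest 40% of probe sets, a table cut to 1 probe set per gene, the average of a gene's probe sets, the axis score as a covariate, a fold of at least 1.5, and leaving out each of the 24 arrays.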

Additional observations from a re-analysis of the deposited data

Results flagged for a closer look

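Each of the 9 genes was examined in each of the 4 groups for a liver that lay far from the other 5 (Dixon's test at the 95% level, 36 gene and group pairs). Chance alone flags about 1 in 20 such groups, and 3 of 36 were found, all in Ogg1-/- livers on chow. Irs1 was 8.23 in replicate 3, where the other 5 livers ran from 8.46 to 8.54. Foxo1 was 8.57 in replicate 1, where the others ran from 8.94 to 9.15. Grb10 was 5.69 in replicate 1, where the others ran from 5.98 to 6.14. Replicate 1 is the liver with an axis score of 80.9.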

How the results depend on the processing

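Of 1602 recomputed differences of the 9 genes, 1495 kept their direction and their side of the threshold, 55 no longer passed, 11 newly passed, 41 changed sign without passing on either side, and 0 changed sign with a call. Of the 6 genes past the test between Ogg1-/- and WT livers on the HFD, 2 passed with the axis score as a covariate and 3 with a fold of at least 1.5. In WT livers between the diets, 1 gene passed with array weights and 1 with the axis score (from 0). In Ogg1-/- livers between the diets the count of 3 became 6 with array weights, 1 with the fit of the 12 arrays compared, with the methods' t-test and with the axis score, and 0 with the fold rule. The cause was not tested. Leaving out single livers gave 5 to 6 genes between the genotypes on the HFD, 0 to 1 on chow, 0 to 0 in the interaction, 0 to 1 between the diets in WT livers and 1 to 5 in Ogg1-/- livers. The count in Ogg1-/- livers was 1 without replicates 1, 2, 4, 5 or 6 on the HFD or replicates 4, 5 or 6 on chow.

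Of pathway genes, the 46 past the test between the genotypes on the HFD became 4 with the axis score and 16 with the fold rule. The 3 on chow became 1 with the fit of 12 arrays and 0 with the methods' t-test, and the 2 between the diets in WT livers became 0 with the methods' t-test and 1 with the fold rule. The 24 in Ogg1-/- livers became 49 with array weights, 9 with the fit of 12 arrays, 6 with the methods' t-test, 10 with the axis score and 11 with the fold rule. Leaving out single livers gave 31 to 53 between the genotypes on the HFD, 2 to 8 on chow, 2 to 3 between the diets in WT livers and 11 to 53 in Ogg1-/- livers, where 53 came without replicate 1 on chow, 11 without replicate 6 and 12 without replicate 5 on chow, and 14 without replicate 1 on the HFD. The Ogg1 difference ran from -0.59 to -0.53 on chow and from -0.63 to -0.56 on the HFD.

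What a shared replicate number stands for is not given in the labels. For samples of the same number, the correlations of their deviations ran from -0.27 to 0.43 with a median of -0.03 over 36 pairs. Pairs of unlike number were not compared, so a shared factor is not excluded. With the replicate block, 6 of the 9 genes passed between the genotypes on the HFD, 0 on chow, 0 in the interaction, 0 between the diets in WT livers and 2 in Ogg1-/- livers.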
